A study of Mus musculus with 15 samples.

Results

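The lining of the airway and gut keeps microbes off its surface with proteins that it secretes into the mucus. Some of them bind bacteria, others withhold iron, block proteases or carry antibodies across the epithelium. The genes described here are 10 of this kind, of 18193 genes that had a probe set of their own on the arrays: the lectin Reg3g, the scavenger receptor protein Dmbt1, the glycoprotein Gp2, the iron-withholding proteins Ltf (lactotransferrin) and Lcn2 (lipocalin 2), the antibody transporter Pigr, the WAP domain genes Slpi and Wfdc18, the acute phase protein Saa3 and the BPI fold protein Bpifa1. They were chosen by name, with part of the choice resting on their rises in mutant lung at 7 months. For these 10 genes that comparison is therefore given as a description, with no test. Earlier results of these data were known when the 10 genes were chosen. Their p-values in tumours are therefore not independent support either. All 10 were measured and no filter on low values was applied. Of the 10 genes, 1 (Pigr) had several probe sets, and the brightest stands for it.

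The arrays, 3 in each of 4 groups, were hybridised with total RNA of mouse lung. The first group was cut from lung tumours of 12-month-old mice that carry a deletion of both Smad4 copies (d/d) as part of their genotype (SMAD4 works with the receptor-regulated SMADs downstream of TGF-beta and BMP), and each sample was a piece of 1 tumour. Its controls were pieces of whole lung of wild type mice of 12 months. The other pair was whole lung of such mutant mice at 7 months, an age that the series places before tumours begin, and whole lung of wild type mice at 7 months. All mice were of mixed background, fed normally and untreated. No difference is ascribed to Smad4 by itself. How the deletion was driven, and whether the 3 arrays of a group came from separate animals, was not given for every group in the sources used here, so p-values measure the spread between these arrays, which may in part be technical. The tumours are set against whole lung, so a change can come from another mix of cells as well as from RNA per cell, and these cannot be told apart in bulk samples. Each age was compared with its own wild type lungs.

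Array medians lay between 95.7 and 99.5 intensity units at 12 months and between 90.9 and 94.3 at 7 months, and log2 intensities correlated over genes at 0.982 to 0.994 within groups. Smad4 itself averaged 3303 ± 364 in tumours and 2819 ± 137 in 12-month wild type lung, and 3292 ± 109 in mutant lung and 3220 ± 73.7 in wild type lung at 7 months (SD, n = 3 each), so its level does not check the labels. Lung markers such as surfactant proteins were present in every group: their summed intensity was 50812 to 74091 in tumours and 74104 to 75059 in 12-month wild type lung, and 77707 to 83014 in mutant and 79760 to 80886 in wild type lung at 7 months. The control probe sets for 18S ribosomal RNA averaged 1121 to 2036 in tumours against 5492 to 6933 in wild type lung at 12 months, and 6556 to 8084 in mutant against 6866 to 7032 in wild type lung at 7 months. Their part in the results was not tested. Xist, which females express from their silenced X, read 64.1 to 237 in the 3 tumours and 6786, 69.8 and 6917 in the 12-month wild type lungs, so the tumours were set against 1 wild type lung of the same sex pattern and 2 of the other. At 7 months, all 3 mutant arrays and wild type arrays 1 and 2 carried both Xist (4516 to 4959) and the Y-linked Eif2s3y (727 to 923), and wild type array 3 carried Eif2s3y (1504) with Xist at 48.1. The labels do not say whether RNA of several animals was pooled for these arrays. If it was, the SDs and p-values at 7 months measure the spread between pools.

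Transcripts of most of these secreted proteins were far more abundant in mutant tissue than in wild type lung of the same age, and a smaller set was not. In tumours, 6 of the 10 genes rose (limma, adjusted p under 0.05): Wfdc18, Gp2, Dmbt1, Ltf, Reg3g and Bpifa1, by 4.92-fold to 33.3-fold. Over all genes 9.23% were called higher. Lcn2 was the 1 gene of the 10 that fell, where 6.02% of all genes were called lower. The median log2 fold change over the 10 genes was 2.66, beside 0.0075 over all genes. By arrays, all 3 tumours lay above all 3 wild type lungs for 7 of the 10 genes (20.5% of all genes did so) and below them for 3 (17.0% of all genes). At 7 months, whose values the choice of genes used, the medians were 3.98 over the 10 genes and 0.0064 over all genes. The 3 mutant lungs lay above the 3 wild type lungs for 7 of the 10 genes (15.2% of all genes) and below them for 0 (10.9% of all genes), and the groups overlapped for Lcn2, Slpi and Saa3. Over all genes, 1679 were called higher and 1095 lower in tumours. With each array centred on its median, these counts were 1327 and 1789. At 7 months 1168 genes (6.42%) were called higher and 253 (1.39%) lower, and 916 and 1025 with the same centring.

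**Figure D1:**
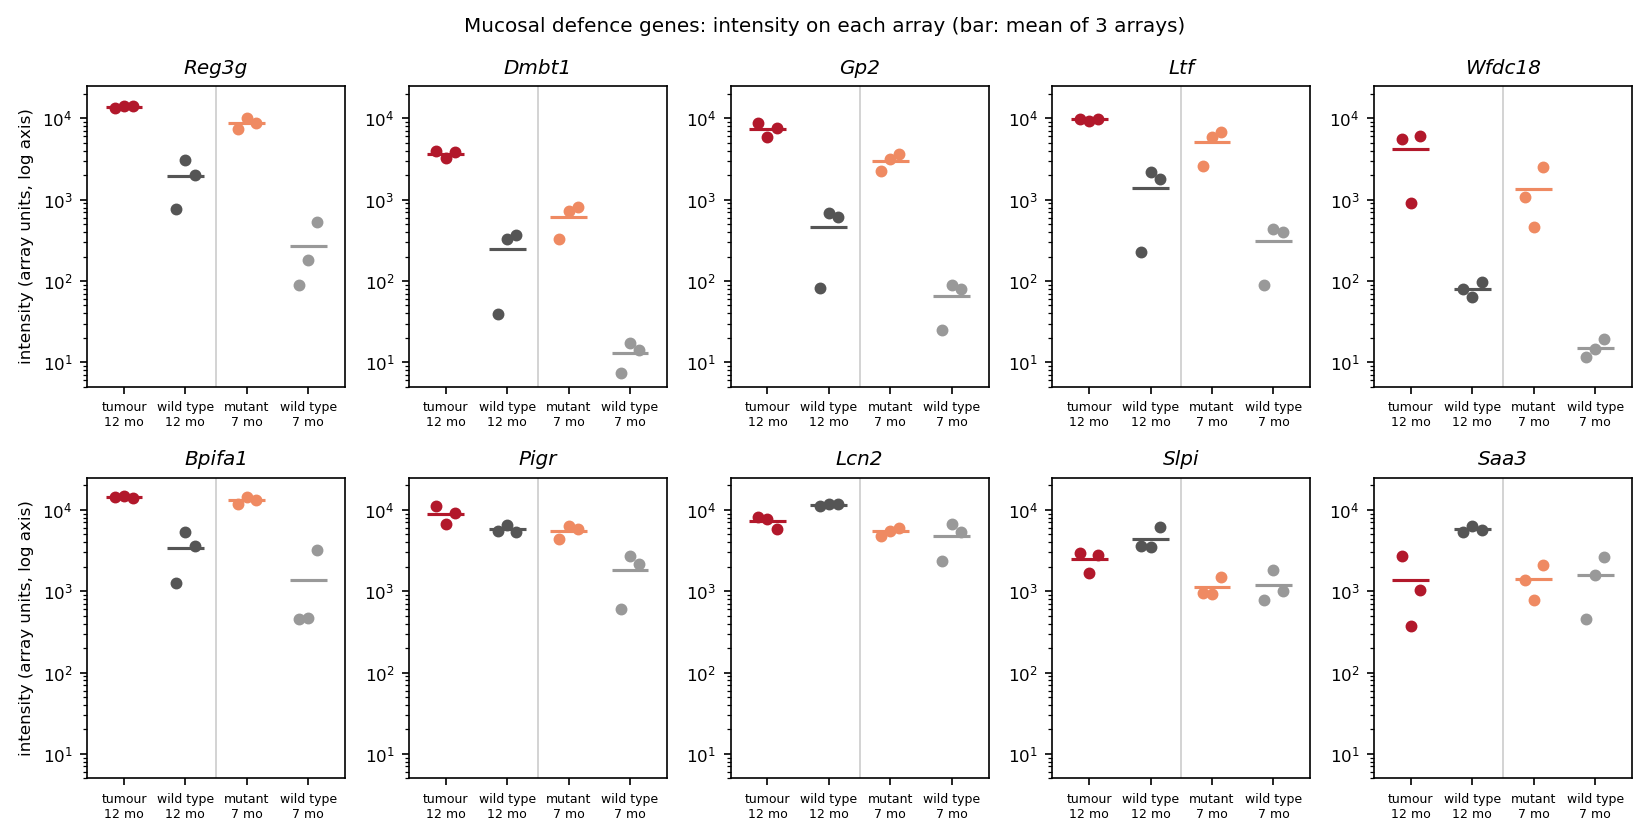
Intensity (log axis, array units) of each of the 10 genes on each of 12 arrays; points are arrays, bars are means of 3 arrays, and groups run from tumour and wild type at 12 months to mutant and wild type at 7 months. Reg3g, Dmbt1, Gp2, Ltf, Wfdc18, Bpifa1 and Pigr lie above wild type at both ages, while Lcn2, Slpi and Saa3 lie below it in tumours and overlap with it at 7 months.

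Reg3g is a C-type lectin of the gut and airway that binds the cell wall of Gram-positive bacteria. Its intensity was 13366, 14232 and 14013 in the 3 tumours, against 759.8, 3094 and 2024 in wild type lungs of 12 months. In mutant lungs of 7 months it was 7486, 10103 and 8850, against 89.1, 180 and 528 in wild type lungs. Every mutant value was above every wild type value of either age, and the 3 tumours were close to the top of the scale, where the brightest probe set of an array read 15174 to 17030. The rise in tumours was 3.03 ± 0.48 on the log2 scale (SE), which is 8.16-fold (limma, adjusted p = 0.0136). In mutant lungs of 7 months the same measure was 5.29, or 39.1-fold.

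Dmbt1 encodes a large scavenger receptor cysteine-rich protein of mucus that aggregates bacteria. It read 4014, 3245 and 3826 in tumours, against 39.6, 329 and 363 in 12-month wild type lungs. In mutant lungs of 7 months it read 327, 721 and 805, against 7.48, 17.1 and 14.1 in wild type lungs, where it was below the pseudocount of 16 on 2 of the arrays. The tumours differed little among themselves, while wild type array 1 of 12 months was far below the other two. The rise in tumours was 4.25 ± 0.73 log2 units, 19.1-fold (limma, adjusted p = 0.0167), and the 7-month difference was 4.37, 20.7-fold.

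Gp2, known from the pancreas and from the gut cells that sample microbes, is a glycoprotein that binds the fimbriae of bacteria. It read 8828, 5869 and 7530 in tumours, against 82.1, 690.0 and 611 in 12-month wild type lungs. Mutant lungs of 7 months read 2240.3, 3167 and 3670, against 24.9, 89.8 and 79.5 in wild type lungs. No value of one group fell among those of its control group at either age. In tumours Gp2 rose by 4.38 ± 0.75 log2 units, 20.8-fold (limma, adjusted p = 0.0169), and at 7 months the difference was 5.32 log2 units. Since Gp2 is a pancreatic product, acinar markers were looked at beside it. Of 14 listed, 10 were measured, with 0 called by limma in tumours (0 higher and 2 lower at an unadjusted p under 0.05) and 1, Rbpjl, called higher at 7 months. Their summed intensity was 272 to 547 in tumours and 429 to 569 in 12-month wild type lung, and 477 to 526 in mutant and 403 to 496 in wild type lung at 7 months. Ctrb1, a defining acinar protease, read 1 to 1.73 on the 12-month arrays. Other acinar markers were brighter there. Cela1 read 74.1 to 101 in tumours and 115 to 173 in wild type lung, and Cela3b 87.9 to 120 and 91.3 to 119. Whether acinar cells add to the Gp2 values was not tested.

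Ltf and Lcn2 both keep iron from bacteria, Ltf by binding the iron itself and Lcn2 by binding the siderophores that bacteria use to collect it. Ltf read 9941, 9363 and 9909 in tumours, against 231, 2177 and 1805 in 12-month wild type lungs. The younger mutant lungs read 2600.1, 5817 and 6764, against 90.3, 436 and 398 in wild type lungs. Tumours and mutant lungs were thus above all wild type lungs of their age, but the wild type lungs of 12 months differed by almost an order of magnitude among themselves. The rise in tumours was 3.29 ± 0.81 log2 units, 9.80-fold, with limma's adjusted p = 0.0434 close to the threshold, and at 7 months the difference was 4.12, 17.3-fold. Lcn2 went the other way in tumours. It read 8181, 7661 and 5860 there, against 11115, 11775 and 11736 in wild type lungs, a change of -0.69 ± 0.14 log2 units or 1.61-fold lower (limma, adjusted p = 0.0252). The younger mutant lungs read 4726, 5556 and 6038, beside 2340.1, 6637 and 5416 in wild type lungs, with all 3 mutant values inside the wild type range.

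Pigr, the receptor that carries IgA and IgM through the epithelium and leaves its outer part on them as secretory component, was bright in every group. It read 11158, 6634 and 9210 in tumours, against 5444, 6441 and 5374 in 12-month wild type lungs. Mutant lungs of 7 months read 4401, 6365 and 5825, against 609.5, 2732 and 2179 in wild type lungs. The mutant values were the higher ones at both ages without overlap, but by a small margin in tumours, where the lowest tumour was close to the highest wild type lung. The difference in tumours was 0.62 ± 0.20 log2 units, 1.53-fold, and did not pass the test (limma, adjusted p = 0.0909). At 7 months it was 1.82 log2 units, 3.52-fold. A second probe set of Pigr gave 1.51-fold in tumours and 4.66-fold at 7 months.

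Wfdc18 and Slpi carry the WAP domain, a small cysteine-rich fold. Slpi is a secreted inhibitor of neutrophil elastase, while Wfdc18 (also known as Expi) is best known in the mouse mammary gland. Wfdc18 read 5591, 922 and 6111 in tumours, against 79.2, 64.04 and 98.6 in 12-month wild type lungs. At 7 months it read 1088, 458 and 2516 in mutant lungs, against 11.6, 14.8 and 19.2 in wild type lungs. Its wild type values were the most even among the 6 genes that rose, and its mutant values were the most uneven, with tumour 2 well below the other tumours. The rise in tumours was 5.06 ± 0.72 log2 units, 33.3-fold (limma, adjusted p = 0.0108), and the 7-month difference was 5.14, 35.4-fold. The Wfdc18 probe set is of the array's class that can match transcripts of more than 1 gene. Slpi read 2911, 1671 and 2810 in tumours, against 3644, 3497 and 6166 in wild type lungs. All 3 tumours were below all 3 wild type lungs, but the change of -0.84 ± 0.30 log2 units did not pass the test (limma, adjusted p = 0.119). At 7 months Slpi read 963, 918 and 1480 in mutant lungs and 773, 1840 and 998 in wild type lungs, with overlapping ranges and a difference of -0.04.

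Saa3 is an acute phase serum amyloid made at inflamed sites, and Bpifa1 (also known as SPLUNC1 in humans) is a lipid-binding secreted protein of the upper airway. Saa3 read 2696, 377 and 1031 in tumours, against 5280, 6246 and 5697 in 12-month wild type lungs. The tumours were all lower and very uneven, with a difference of -2.47 ± 0.65 log2 units, 5.54-fold, that missed the threshold (limma, adjusted p = 0.0522). At 7 months Saa3 read 1388, 788 and 2099 in mutant lungs and 461, 1576 and 2648 in wild type lungs, and the mutant values lay within the wild type range. Bpifa1 read 14328, 14795 and 14067 in tumours, against 1271, 5343 and 3617 in 12-month wild type lungs. Mutant lungs of 7 months read 11770, 14229 and 13299, against 458, 469 and 3245 in wild type lungs. Tumours and mutant lungs alike were near the top of the scale, while wild type array 3 of 7 months stood well above arrays 1 and 2. Array 3 was the one with Xist at 48.1. Its 3' to 5' ratio of the Gapdh control probe sets was 2.45, against 1.61 to 1.99 on the other 7-month arrays reported. The part of sex or RNA quality in this value was not tested. Bpifa1 rose by 2.30 ± 0.50 log2 units in tumours, 4.92-fold (limma, adjusted p = 0.0307), and differed by 3.85 at 7 months, 14.4-fold. The deposited values carry no saturation flags, so whether the folds of Bpifa1 and Reg3g are lower bounds was not tested.

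**Figure D2:**
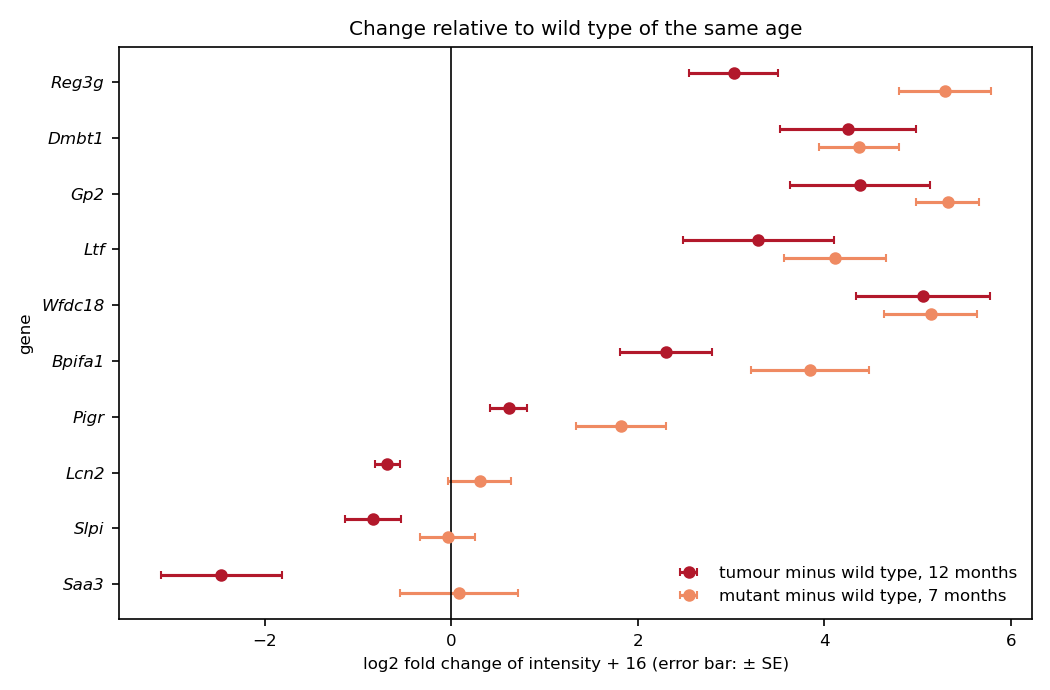
Log2 fold change of intensity + 16 for the 10 genes (points, with ± SE as bars), for tumours minus wild type at 12 months and mutant minus wild type lung at 7 months. Wfdc18, Dmbt1 and Gp2 sit at 4.25 to 5.32 at both ages, and Saa3 differs most between the comparisons, at -2.47 in tumours and 0.08 at 7 months.

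The calls in tumours rested on few arrays. When 1 array was left out, the number of the 10 genes called higher lay between 1 and 6. Without tumour 1 it was Wfdc18 alone, without tumour 3 it was Wfdc18 and Reg3g, and without wild type array 3 it was Wfdc18, Dmbt1 and Gp2. Reg3g, Dmbt1 and Gp2 kept a log2 fold change of at least 2.46 in each of these fits, the lowest being that of Reg3g without wild type array 1. Lcn2 was not called when any wild type array was left out (adjusted p 0.0719 to 0.0863). Saa3 was called lower without tumour 1 (adjusted p = 0.0300) or tumour 2 (0.0410), and Pigr was called higher without tumour 2 (0.0182). Against the single wild type lung of the tumours' own sex pattern, with the spread pooled over all arrays, Wfdc18 (5.31), Dmbt1 (3.42), Gp2 (3.37) and Reg3g (2.16 log2 units) were still called higher, and Ltf, Bpifa1 and Lcn2 were not. With sex as a term in the fit, which leaves that 1 wild type lung to carry the contrast, 0 of the 10 genes and 1 gene of all were called.

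The wild type lungs of the 2 ages also differed, although age cannot be told apart from whatever else differs between the 2 sets, which the series describes as separate studies. Lungs of 12 months lay above lungs of 7 months without overlap for 7 of the 10 genes: Reg3g, Dmbt1, Pigr, Lcn2, Slpi, Wfdc18 and Saa3. Over all genes 30.5% did so, and 18.2% lay below without overlap. The other 3, Gp2, Ltf and Bpifa1, overlapped. Saa3 averaged 5741 ± 484 at 12 months and 1561 ± 1094 at 7 months in wild type lung, and Lcn2 averaged 11542 ± 370 and 4798 ± 2214 (SD, n = 3 each). So the tumours' fall in Lcn2 and the lower Saa3 were measured against wild type lungs that were themselves brighter than the younger ones: Lcn2 averaged 7234 ± 1218 in tumours and 5440 ± 664 in mutant lungs of 7 months, and Saa3 averaged 1368 ± 1196 and 1425 ± 657. Tumours lay above mutant lungs of 7 months without overlap for 6 genes, Reg3g, Dmbt1, Gp2, Pigr, Ltf and Slpi, beside 32.5% of all genes above and 17.7% below. Whether the effect in tumours and that at 7 months differ was not tested.

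Across arrays the 10 genes formed 2 blocks. Over the series' 15 arrays, Reg3g, Dmbt1, Gp2 and Ltf correlated with each other at 0.923 to 0.984 (Pearson's r of log2 values), with Wfdc18 at 0.848 to 0.890 and with Bpifa1 at 0.794 to 0.934. Lcn2, Slpi and Saa3 correlated with each other at 0.680 to 0.858, and with Reg3g at 0.304, 0.175 and -0.021. Pigr stood between the blocks, at 0.850 with Reg3g and 0.686 with Lcn2. These are descriptions of arrays that share groups and ages, so the group differences above enter each value. Within wild type lung, array 1 was low for most of the 10 genes and not for the first block alone. At 12 months it was the lowest of its group for 7 of the 10 (Reg3g, Dmbt1, Gp2, Ltf, Bpifa1, Lcn2 and Saa3), beside 35.0% of all genes, and at 7 months for all 10, beside 35.7% of all genes. It was also the lowest for 7 of 10 mucous cell markers at each age, among them Agr2, which folds mucins (49.6, 240 and 213 in 12-month wild type lungs), and Muc5b, a main airway mucin (592, 1841 and 1383), while Muc5ac and Spdef were not lowest on it at either age.

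**Figure D3:**
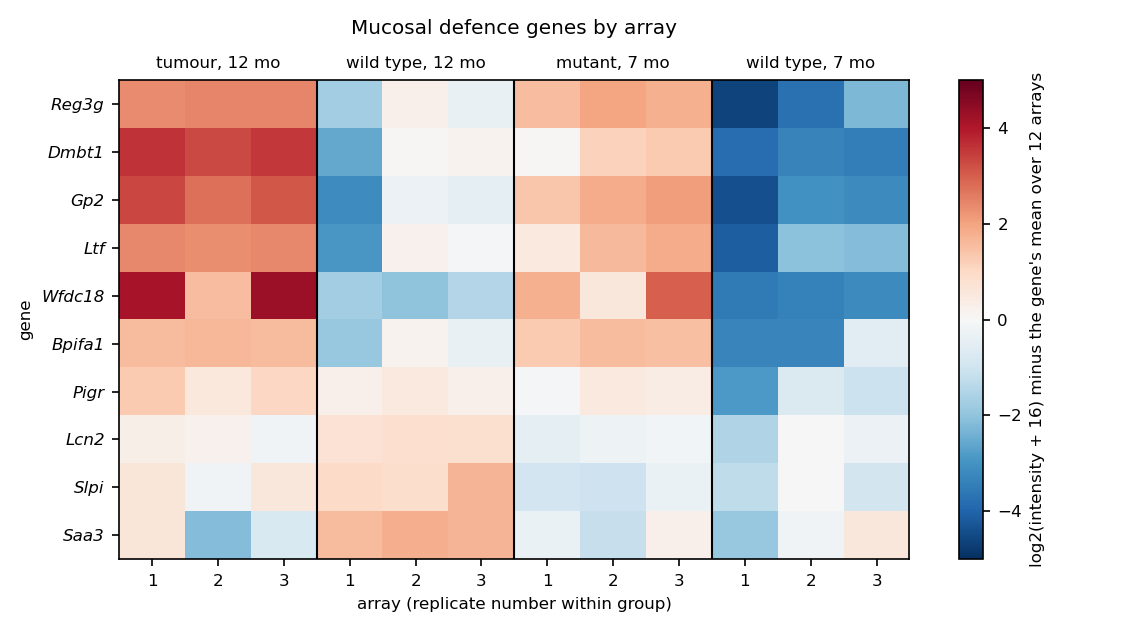
Log2(intensity + 16) of the 10 genes minus each gene's mean over the 12 arrays shown (colour scale), with arrays in columns by group and replicate number. The upper 6 rows are red in tumours and mutant lungs, except that Dmbt1 is near its mean in mutant array 1. They are blue in 7-month wild type lungs, with array 1 of each wild type group the darkest blue for Reg3g, Gp2 and Ltf. Lcn2, Slpi and Saa3 are reddest in 12-month wild type lungs.

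The 10 other genes whose pattern over the 15 arrays was most like the mean of the standardized log2 values of these genes were Tff2 (r = 0.979), D17H6S56E-5 (0.954), Muc4 (0.949), Cd177 (0.941), Basp1 (0.934), Npl (0.934), Slc39a11 (0.932), Car13 (0.932), Nhp2 (0.929) and Rab15 (0.928). Tff2 is a trefoil peptide of mucus and Muc4 a membrane-bound mucin. The cell types behind the 10 genes, Cd177 among them, were not tested, and the list is not read as a mucous cell pattern. Tff2 read 1879, 1600.2 and 2037 in tumours, against 345, 975 and 787 in 12-month wild type lungs, and 764, 808 and 805 in mutant lungs of 7 months, against 43.4, 209 and 185 in wild type lungs. Gene by gene, the closest pattern of any measured gene was Gp2 for Reg3g (0.970) and for Ltf (0.984), Ltf for Gp2, Ttc39a for Dmbt1 (0.977), 2210407C18Rik for Wfdc18 (0.958), Bpifb1 for Bpifa1 (0.940), D17H6S56E-5 for Pigr (0.945), Wfdc17 for Lcn2 (0.957), Bco2 for Slpi (0.983) and Slc7a2 for Saa3 (0.941).

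Promoters of the genes were compared because 7 of them were higher without overlap at both ages while 3 were not. RefSeq promoters of assembly GRCm38.p6, from 250 bases before to 50 bases after each gene's start, matched 9 of the 10 genes. Shown are Reg3g, Gp2 and Ltf of the first block and Lcn2 and Saa3 of the second. Capitals mark the ETS-type hexamer AGGAAG, on either strand, and the C/EBP-type octamer TTGNNCAA.
Reg3g promoter, chr6:78468825-78469124, minus strand: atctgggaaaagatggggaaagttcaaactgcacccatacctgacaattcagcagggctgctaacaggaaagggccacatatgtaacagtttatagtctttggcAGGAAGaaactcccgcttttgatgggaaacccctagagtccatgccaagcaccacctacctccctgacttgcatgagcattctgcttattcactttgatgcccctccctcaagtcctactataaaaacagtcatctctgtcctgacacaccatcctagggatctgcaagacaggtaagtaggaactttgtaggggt
Gp2 promoter, chr7:119459223-119459522, minus strand: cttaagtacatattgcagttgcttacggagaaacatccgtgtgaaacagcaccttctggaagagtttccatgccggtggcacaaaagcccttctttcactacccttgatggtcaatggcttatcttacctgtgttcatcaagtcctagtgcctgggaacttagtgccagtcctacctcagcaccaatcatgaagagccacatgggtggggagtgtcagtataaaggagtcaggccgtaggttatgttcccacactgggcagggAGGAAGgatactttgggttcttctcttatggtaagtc
Ltf promoter, chr9:111019042-111019341, plus strand: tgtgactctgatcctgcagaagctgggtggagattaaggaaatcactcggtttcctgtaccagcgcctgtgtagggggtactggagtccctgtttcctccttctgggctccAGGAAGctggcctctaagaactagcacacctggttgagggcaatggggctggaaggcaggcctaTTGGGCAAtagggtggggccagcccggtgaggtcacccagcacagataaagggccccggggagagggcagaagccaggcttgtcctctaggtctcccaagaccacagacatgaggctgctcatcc
Lcn2 promoter, chr2:32387690-32387989, minus strand: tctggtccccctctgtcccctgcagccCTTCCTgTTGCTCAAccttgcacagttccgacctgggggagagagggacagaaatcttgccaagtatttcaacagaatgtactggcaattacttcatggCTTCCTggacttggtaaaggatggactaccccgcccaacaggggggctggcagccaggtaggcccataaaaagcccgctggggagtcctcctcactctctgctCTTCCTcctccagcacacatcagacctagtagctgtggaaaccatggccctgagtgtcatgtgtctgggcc
Saa3 promoter, chr7:46715627-46715926, minus strand: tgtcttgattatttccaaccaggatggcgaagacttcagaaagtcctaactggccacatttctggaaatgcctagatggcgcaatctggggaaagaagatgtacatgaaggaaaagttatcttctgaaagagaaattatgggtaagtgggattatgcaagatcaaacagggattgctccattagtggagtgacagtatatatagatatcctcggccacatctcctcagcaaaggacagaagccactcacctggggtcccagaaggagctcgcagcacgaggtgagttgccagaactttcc
AGGAAG, searched on both strands, was in 7 of the 9 promoters and in 35.4% of 32851 RefSeq promoters. The 7 were Reg3g (position -146 from the start), Gp2 (13), Ltf (-139), Wfdc18 (-192), Bpifa1 (-13), Pigr (38) and Lcn2, which held it 3 times, so that it was present in genes of both blocks. It was not found in the windows of Slpi and Saa3. TTGNNCAA was in Ltf, Lcn2 and Slpi, beside 6.40% of all promoters. The STAT-type motif TTCNNNGAA was in Pigr alone (8.30% of all), where it overlaps the AGGAAG match, and the AP-1 motif TGANTCA in Bpifa1 alone (7.81%). The NF-kB core GGANNNTCC (8.62% of all), CGGAAG (16.9%), the SMAD palindrome GTCTAGAC (0.213%) and the FOXO motif TGTTTAC (3.65%) were found in 0 of the 9. A match of so few letters describes the sequence and is not a binding site.

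Relatives of these genes were read from lists of the same families. A number in brackets after a fold change of these genes is the adjusted p of limma over all genes. The lists were chosen with earlier results of these data known, so these p-values are not independent support. Counts of called genes in these lists stand beside the shares of all genes. Those were 9.23% higher and 6.02% lower in tumours, and 6.42% and 1.39% at 7 months. Of the REG lectins beside Reg3g, 6 of 6 were measured and 0 were called in either direction at either age, with summed intensities of 190 to 346 in tumours and 238 to 284 in 12-month wild type lung. At an unadjusted p under 0.05 the counts were 1 higher and 1 lower in tumours and 4 higher and 0 lower at 7 months. Of the WAP genes, 12 of 13 were measured. Wfdc2 rose at both ages, by 1.49-fold in tumours (limma, adjusted p = 0.00946) and by 1.46-fold in mutant lungs of 7 months (0.00147), and Wfdc3 rose by 1.44-fold at 7 months (0.0205). Wfdc17 was called lower in tumours, with 2391, 1333 and 1302 against 4922, 4226 and 6090 in wild type lungs, 3.10-fold (0.0147). Of the BPI fold genes, 11 of 17 were measured and 2 rose at each age. Bpifb1, the long relative of Bpifa1 in airway mucus, read 8276, 7217 and 8848 in tumours, against 507, 1708 and 1734 in wild type lungs, and rose by 6.96-fold (adjusted p = 0.0160). At 7 months it read 5327, 5125 and 4899.9 in mutant lungs, against 152, 821 and 1177, and rose by 9.30-fold (adjusted p = 0.0138). The second genes were Bpifa3 in tumours (1.42-fold, 0.0265) at intensities of 42.8 or less, and Lbp at 7 months (1.62-fold, 0.0283), which carries lipopolysaccharide to its receptor.

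Acute phase genes, 12 of 13 measured, went in different directions. In tumours 1 rose and 5 fell, with a median log2 fold change of -0.80 over the list. Ceruloplasmin (Cp), a copper protein, rose by 1.71-fold (adjusted p = 0.0166) and by 2.36-fold at 7 months (0.000393). Orm2 (6.31-fold lower, 0.0103), Orm1 (5.18-fold, 0.00486) and Itih4 (4.46-fold, 0.00474), plasma proteins of the acute phase, fell in tumours together with Saa1 and Saa2, the nearest relatives of Saa3. Orm1 read 376, 217 and 283 in tumours against 1299, 1543 and 1836 in 12-month wild type lungs. At 7 months Orm1 read 66.9, 108 and 107 in mutant lungs and 46.0, 345 and 106 in wild type lungs, which overlap. Itih4 averaged 1416 in tumours and 6331 in 12-month wild type lung, and 1461 in mutant and 1488 in wild type lung at 7 months. For Orm1, Orm2 and Itih4, wild type lungs of 12 months lay above those of 7 months without overlap, as did 30.5% of all genes. At that age 2 of the 12 rose and 0 fell, the second being haptoglobin (Hp, 1.28-fold, 0.0071).

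Of the other antimicrobial peptides and enzymes, 26 of 28 were measured, with 4 called higher and 0 lower in tumours and 4 higher and 1 lower at 7 months (medians 0.13 and 0.0046). Among all genes, 9.23% were called higher and 6.02% lower in tumours, and 6.42% and 1.39% at 7 months. Defb1, a beta-defensin, read 187, 92.4 and 349.9 in tumours against 11.3, 26.5 and 16.3 in wild type lungs, 5.99-fold higher (adjusted p = 0.0162). Sprr1a, a cornified envelope protein that also acts on bacteria in mice, rose by 2.06-fold in tumours (0.0186) and by 2.02-fold at 7 months (0.0130). Tff2 rose by 2.80-fold in tumours (0.0453) and by 5.81-fold at 7 months (0.0109). The mucin Muc1 rose by 0.58 log2 units at 7 months (0.0220) and read 2603, 2858 and 2127 in tumours against 2834, 2980.3 and 3344 in wild type lungs (adjusted p = 0.221). Among the soluble pattern recognition proteins and the relatives of Dmbt1 and Gp2, all 17 were measured and 2 rose in tumours and 3 at 7 months. Pglyrp1, which binds bacterial peptidoglycan, read 4272, 3116 and 5197 in tumours against 154, 424 and 292 in wild type lungs, 14.5-fold higher (0.00546), and at 7 months 665, 1342 and 1116 in mutant against 158, 137 and 135 in wild type lungs, 6.39-fold higher (0.000233). Umod, the closest relative of Gp2, rose by 5.39-fold in tumours (0.00410) and by 1.60-fold at 7 months (0.0112), reading 163, 113 and 204 in tumours against 15.4 to 16.4 in wild type lungs. Cd14, the lipopolysaccharide coreceptor, rose by 1.43-fold at 7 months (0.0424). Of the genes of mucosal antibody secretion, 8 of 9 were measured, with 0 called in tumours (1 higher at an unadjusted p under 0.05) and 2 higher at 7 months: Fcamr, an IgA and IgM receptor (2.59-fold, 0.00748), and Ccl28, a chemokine for IgA-producing cells (1.91-fold, 0.0128).

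**Figure D4:**
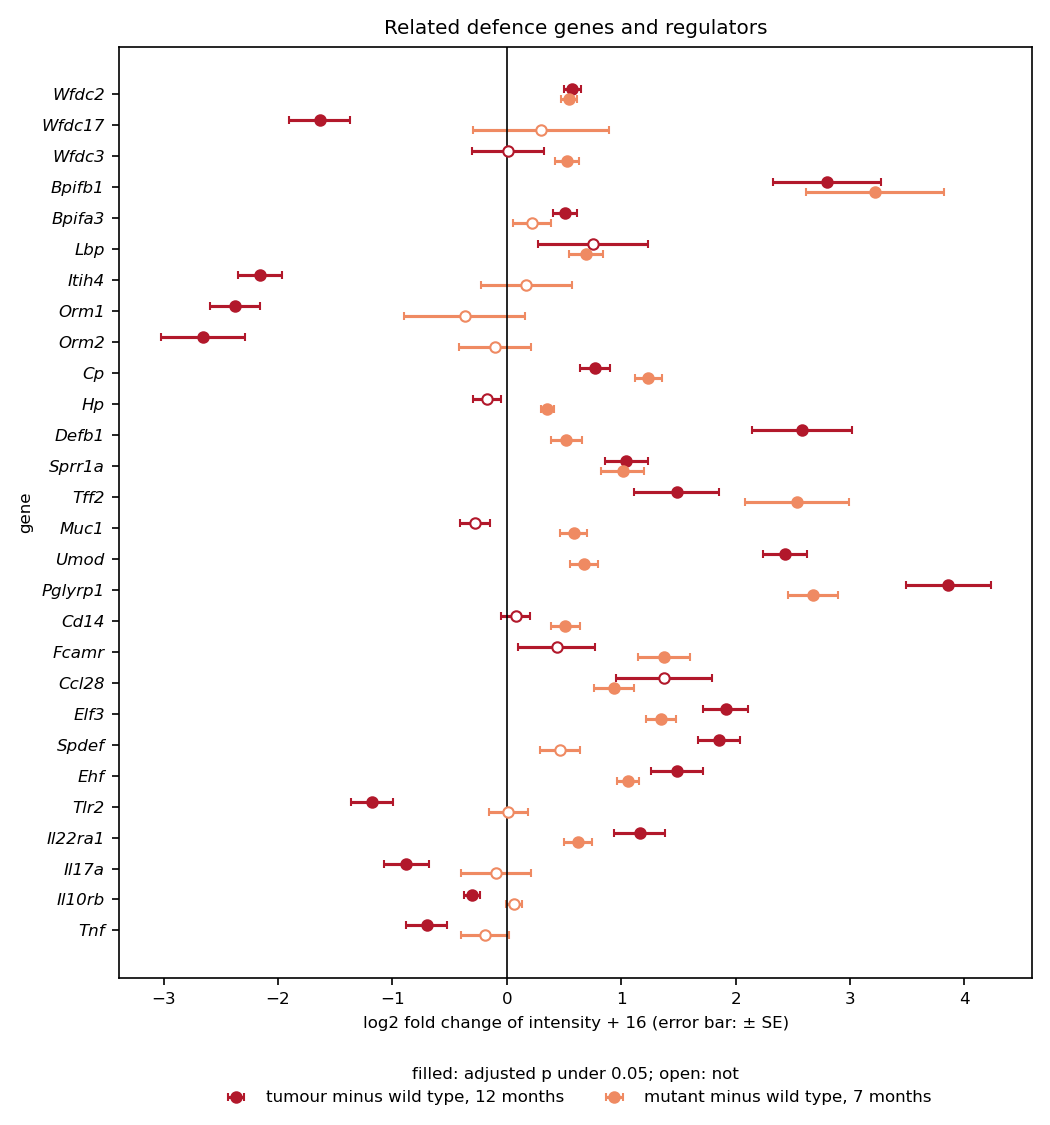
Log2 fold change of intensity + 16 (points, with ± SE as bars) of the relatives and regulators named in the text, for tumours minus wild type at 12 months and mutant minus wild type lung at 7 months; filled points have an adjusted p under 0.05. Bpifb1, Pglyrp1, Umod, Elf3 and Ehf are filled and positive at both ages, and Orm1, Orm2 and Itih4 are filled and negative in tumours and open at 7 months.

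Expression of several of these defence genes is known to be induced through IL-17, IL-22 and NF-kB signalling and by epithelial ETS factors. Of 32 such cytokines, receptors and factors, 28 were measured, with 4 called higher and 4 lower in tumours and 3 higher and 0 lower at 7 months (medians -0.04 and 0.06). The ETS factors rose. Elf3 read 2135, 1443 and 2401 in tumours against 519.9, 540.1 and 459 in wild type lungs (3.77-fold, adjusted p = 0.00573), and 761, 839 and 1015 in mutant lungs of 7 months against 277, 346 and 375 in wild type lungs (2.55-fold, 0.000509). Ehf rose by 2.80-fold in tumours (0.0129) and by 2.08-fold at 7 months (0.000398). Spdef, the ETS factor of mucous cells, rose by 3.61-fold in tumours (0.00573) and read 42.4, 31.1 and 41.6 in mutant lungs of 7 months against 20.7, 30.0 and 19.7 in wild type lungs (0.147). The IL-22 receptor chain Il22ra1 rose by 2.24-fold in tumours (0.0229) and by 1.54-fold at 7 months (0.0180), at intensities of 110.4 or less. Tlr2 was lower in tumours by 2.26-fold (0.0132), Il17a by 1.84-fold (0.0348) and Tnf by 1.62-fold (0.0489). Il10rb, which like Il22ra1 is a chain of the IL-22 receptor, was also lower there, by 1.24-fold (0.0358). At 7 months the differences of these 4 genes lay between -0.19 and 0.06 log2 units, and 0 of the 4 were called. For all 4, wild type lungs of 12 months lay above those of 7 months without overlap, as did 30.5% of all genes. Tlr2 averaged 347 in tumours and 801 in 12-month wild type lung, and 346 in mutant and 337 in wild type lung at 7 months. Il17a and Tnf were dim, at intensities of at most 68.5 and 110 in these groups. Il17c, Il17f, Il22 and Nfkb1 were not analysed here.

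Lists of cell type markers were read as well. Their counts stand beside 9.23% of all genes called higher and 6.02% lower in tumours, and 6.42% and 1.39% at 7 months. Goblet and mucous cell markers, 10 of 10 measured, were called higher for 7 genes in tumours and for 6 at 7 months, with 0 lower. Their summed intensity was 21928 to 23658 in tumours against 6374 to 14216 in wild type lung at 12 months, and 15803 to 17989 in mutant against 1177 to 5660 in wild type lung at 7 months. Agr2 was 21.7-fold higher in tumours (limma, adjusted p = 0.00743) and Muc5b 4.96-fold higher (0.0173). Ciliated cell markers, which include the factor Foxj1, were called higher for 10 of 10 genes in tumours and 9 at 7 months, with sums of 19223 to 26491 in tumours against 10878 to 13001 in wild type lung, and 13038 to 14674 in mutant against 9471 to 9989 in wild type lung. Club cell markers gave 2 of 8 higher in tumours and 5 at 7 months, with sums of 60547 to 63096 in tumours against 53018 to 58069 and of 64064 to 67600 in mutant against 56629 to 58874 in wild type lung. Neutrophils store Ltf, Lcn2 and Pglyrp1 in their granules. Of 18 neutrophil markers 16 were measured, and 1 (Hdc) was called higher at each age. At an unadjusted p under 0.05, 5 were higher and 0 lower in tumours, where the list's median log2 fold change was 0.53, and 1 was higher and 2 lower at 7 months. The sums overlapped, at 9441 to 25549 in tumours and 6764 to 11184 in 12-month wild type lung and at 4632 to 15779 in mutant and 4437 to 17513 in wild type lung at 7 months. Macrophage markers, 9 of 10 measured, were called lower for 5 in tumours, with sums of 18718 to 28261 against 37595 to 45158 in wild type lung. At 7 months 0 were called, with 0 at an unadjusted p under 0.05. Their sums at that age were 19462 to 25190 in mutant and 15513 to 27160 in wild type lung. The 12-month wild type lungs were thus above every other group in the summed intensity of this list, but not for each marker. Fabp4 read 5327 to 6333 in tumours against 4727 to 5959 in 12-month wild type lung. Plasma cell markers gave 0 of 8 called in tumours and 1 higher at 7 months, alveolar type 2 markers 0 of 10 and 1 higher, and salivary and tracheal gland markers 1 of 8 lower in tumours and 0 at 7 months. At an unadjusted p under 0.05 the plasma cell markers gave 2 higher and 0 lower in tumours, and 4 higher and 0 lower at 7 months. The alveolar ones gave 0 higher and 1 lower in tumours, and 4 higher and 0 lower at 7 months. The gland ones gave 2 higher and 1 lower in tumours, and 1 higher and 1 lower at 7 months. The part of these cells in the values of the 10 genes was not tested.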

How the data were processed

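Per the labels' protocols, total RNA was labelled by the 3' IVT Express method, which favours the 3' ends of transcripts. The authors deposited 1 linear intensity per probe set and array, from 0.48 to 17030 over 45101 probe sets. Their summarization and scaling were not stated in any source used. On each array, 1.46% to 2.01% of values equal exactly 1.

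Of the probe sets, 34945 named 1 gene, 932 several and 9224 none in the platform annotation. Per gene the probe set with the highest mean over 15 arrays was kept, which left 18193 genes. Intensities were taken as log2(intensity + 16) and compared with limma 3.58.1 under R 4.3.3 (moderated two-sided test, Benjamini-Hochberg over all genes, called at an adjusted p under 0.05), after the procedure was tested on simulated data. Fold changes are on that scale and understate dim genes, since 17.1% to 21.1% of values lay below 16. The number of arrays limits the precision. The 12-month arrays were fitted on their own. The 7-month fit held 9 arrays, 3 of them of a further group, which, like part of the mutants' genotype, is not reported here. Those arrays enter the spread, the choice of probe sets and the correlations.

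The 10 genes and all lists were chosen with earlier results of these data known. Relatives named are, per list, up to 3 called genes per comparison by smallest adjusted p, and every called inducing factor; Saa1 and Saa2 and mucous cell genes were named after their values were seen. Alternatives covered the pseudocount, scaling, dim genes, probe sets, the fit, sex, replicate numbers and left-out arrays. Samples with the same number at 7 months did not deviate together (correlations of -0.128, 0.025 and -0.085).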

Additional observations from a re-analysis of the deposited data

Results flagged for a closer look

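For Muc1 and Il10rb, all 3 tumours lay below the mean of their wild type lungs and all 3 mutant lungs of 7 months lay above theirs. Muc1, a membrane-bound mucin, gave -0.28 log2 units in tumours and 0.58 in mutant lungs of 7 months, a gap of -0.86. Il10rb, a chain of the IL-10 and IL-22 receptors, gave -0.31 in tumours and 0.06 at 7 months, a gap of -0.37. Mutant and wild type ranges overlapped for Muc1 in tumours (limma, adjusted p = 0.221) and for Il10rb at 7 months (0.634). The share of all genes with such a pattern was not counted. The difference between ages was not tested for either gene.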

How the results depend on the processing

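In tumours, no alternative turned the direction of a called value of the 10 genes. The count of the 10 genes called lower there was 2 in place of 1 with a pseudocount of 64, median centring, dim genes left out, or a trended robust fit, and 0 against the same-sex wild type array only. With sex as a term, 1 and 0 genes of all, and 0 and 0 of the 10, were called higher and lower. Of all genes, 1789 were called lower with median centring, and 2735 higher and 2191 lower in one fit of 15 arrays. Leaving out 1 array gave 622 to 1900 higher and 220 to 1426 lower of all genes, and 1 to 6 higher and 0 to 2 lower of the 10. The second gene called lower was Saa3 in these cases (adjusted p = 0.0181 in one fit of 15 arrays, where Lcn2, at 0.101, was not called). Over all alternatives, values of the relatives named in the report kept their side of the threshold in 380 cases in tumours, lost a call in 81 and gained one in 4, and at 7 months kept it in 417 and lost it in 48. Single calls that were lost in many alternatives held as follows: in tumours Tnf and Bpifa3 in 8 of 16 each, Il10rb in 8 of 17, and Ltf and Tff2 in 9 of 17 each, and at 7 months Cd14 in 8 of 17, Lbp in 9 of 17 and Defb1 in 1 of 16. Ltf was not called in 5 of the 6 fits without 1 array or with a pseudocount of 1 (adjusted p = 0.0665). At 7 months, genes called lower numbered 459 with a pseudocount of 64, 424 after quantile normalization, 1025 with median centring, 559 without dim genes, 555 with a trended robust fit, 127 with array weights, 104 in one fit of 15 arrays, and 116 to 180 without 1 array. With only the 2 groups fitted, 730 were called higher and 37 lower. With the replicate number as a block, 992 were called higher and 157 lower; the numbers do not pair the samples. Centring shifted the median log2 fold change of all genes to -0.09 in tumours and -0.08 at 7 months. Dim values limit the folds of Dmbt1 and Wfdc18 in 7-month wild type lung.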

Other observations

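Transcripts of the antibody that Pigr carries were abundant in every group. Igha, the constant region of IgA, read 11551, 10994 and 11022 in tumours and 11571, 10469 and 11886 in wild type lungs of 12 months (limma, adjusted p = 0.935). At 7 months it read 6643, 7649.9 and 7949 in mutant lungs and 3230, 6554 and 3206 in wild type lungs, 1.81-fold higher without overlap but not past the threshold (adjusted p = 0.0792). Jchain, which joins IgA into dimers, read 11048, 9289 and 11756 in tumours and 11543, 9760.4 and 10797 in wild type lungs of 12 months (0.987), and at 7 months 4584, 5477 and 5958 in mutant lungs against 2256, 5071 and 2315 in wild type lungs (0.116). Both genes were named after their values were seen.

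Scgb3a1, a secretoglobin of mucous and club cells, read 11391, 12254 and 11707 in mutant lungs of 7 months against 652, 3584 and 4302 in wild type lungs, 5.41-fold higher (limma, adjusted p = 0.0420). In tumours it read 8804, 10830 and 9177 against 4897, 10235 and 10042 in wild type lungs of 12 months (adjusted p = 0.605). It was named after its values were seen.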
